A study of Homo sapiens with 4 samples.

Results

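The data are a comparison of 2 arrays out of the 4 in the series, the U266 array after atovaquone and the U266 array after vehicle. U266 is an established human multiple myeloma line, that is, a tumour line of plasma cells. The cells were given 15 µM atovaquone, or DMSO as the vehicle, and total RNA was taken after 2 h. The remaining arrays hold K562, a chronic myeloid leukaemia line, with 20 µM atovaquone or vehicle for 5 h, and their values stand beside those of U266 below without a comparison, because dose, time and line all differ. Each group was 1 array of 1 cell line. There was no replicate, so no test or p-value was possible and every ratio describes a pair of arrays.

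Atovaquone is an antimalarial drug of the hydroxynaphthoquinone class that binds the ubiquinol oxidation site of respiratory complex III. Plasma cells secrete large amounts of immunoglobulin and depend on protein folding capacity. A short exposure to a stressor typically raises transcripts of heat shock and immediate early genes, which are made without new protein synthesis. Those stress genes were put on 8 lists and set aside here, so that the account below is of the other functions and of the probe sets that several genes share.

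The lowest bound among probe sets with a gene symbol belonged to a microRNA gene, MIR142, whose 2 mature products come from opposite arms of 1 hairpin. The mature sequences are given from RefSeq on GRCh38.p14, with that of miR-21-5p, the main product of the microRNA gene on the high side, and the capitals mark the seed, bases 2 to 8, that pairs with target mRNAs. The genes lie on chromosome 17, at chr17:58331245-58331267 (minus strand) for miR-142-3p, chr17:58331283-58331303 (minus strand) for miR-142-5p and chr17:59841273-59841294 (plus strand) for miR-21-5p.
hsa-miR-142-3p: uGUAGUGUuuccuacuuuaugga
hsa-miR-142-5p: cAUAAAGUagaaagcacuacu
hsa-miR-21-5p: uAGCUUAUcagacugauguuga
The 3 seeds differ from each other. MIR142, a microRNA gene expressed throughout the blood lineages, had an intensity of 1404 with vehicle and 283 with atovaquone. The treated value lay under the detection floor of 324, so the gene was at least 4.34-fold lower (log2 ratio −2.12 or less). In K562 it stood at 538 and 288, also under the floor with the drug. MIR21, a microRNA gene abundant in many tumours, went the other way, from 330.05 just under the vehicle floor of 331 to 509.53, a log2 ratio of at least 0.62. Whether these probe sets detect the primary transcript, the hairpin or the mature RNA is not given in the sources used here. Of 210 units named as microRNA genes (host gene MIR17HG included), 27 were measured on both U266 arrays and 0 of them were at least 1.5-fold different.

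The array carried 33252 probe sets, of which 21214 had at least 1 gene symbol in the annotation (listed) and 12038 had none (unlisted). Each array's floor was the 40th percentile of its listed probe sets, and a probe set was measured if it reached the floor on both arrays. Of the listed probe sets 12429 were measured. Ratios are log2 of atovaquone over vehicle, centred on the median of all 16410 measured probe sets. Over the listed ones the SD was 0.20, and 95% of the ratios lay between −0.30 and 0.33. At least 2-fold higher with atovaquone were 43 of them (0.346%), and 0 were at least 2-fold lower (0.0%). At a size of 1.5-fold, 105 were higher (0.845%) and 14 lower (0.113%). Among the 11276 of them with 1 symbol, 34 were at least 2-fold higher (0.302%), 92 at least 1.5-fold higher (0.816%) and 13 at least 1.5-fold lower (0.115%). A stress list held 29 of the 43, and 14 were on none. Of the 105, 62 were on no stress list, and so were 13 of the 14 lower ones. The exception was FICD, of the endoplasmic reticulum list. The SD was between 0.16 and 0.22 in each of 5 bands of mean intensity. The median rose slightly with intensity, from −0.04 in the dimmest band to 0.0070 in the brightest.

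**Figure D1:**
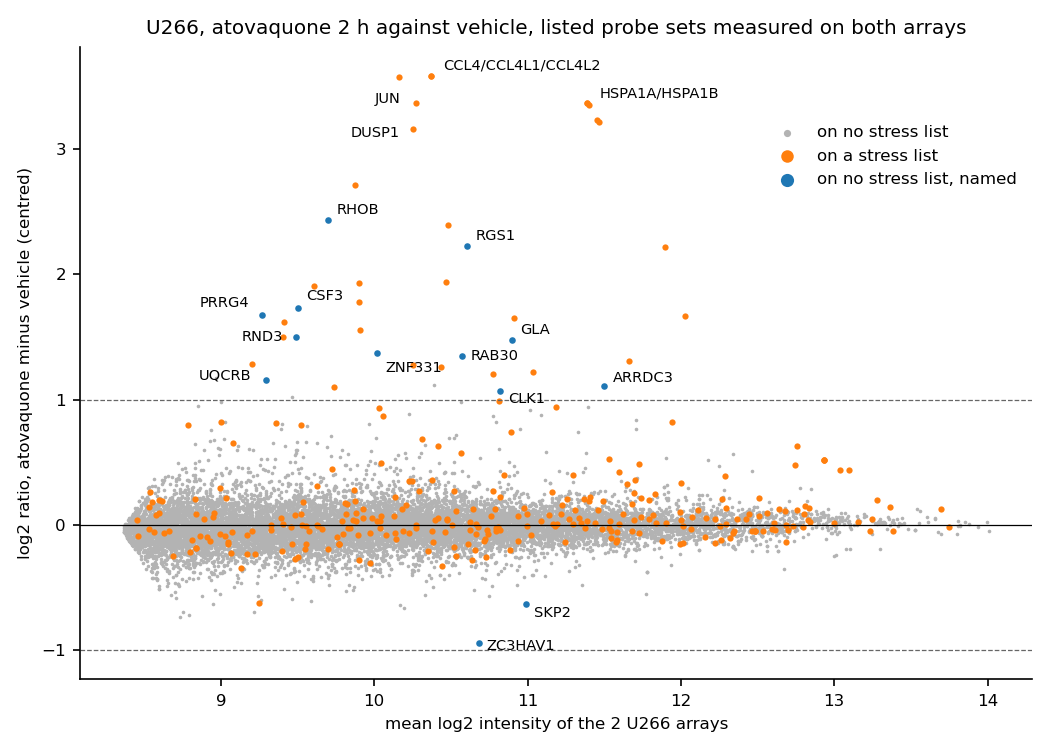
Log2 ratio of atovaquone to vehicle (y axis) against the mean log2 intensity of both U266 arrays (x axis) for the 12429 listed probe sets measured on both. Orange points are on a stress list, grey and blue points are not, and dashed lines mark 2-fold. The 43 probe sets above the upper line have no counterpart below the lower line, and ZC3HAV1 at −0.94 lies closest to it.

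Probe sets with several symbols gave the highest ratios of the comparison. Of 1153 measured, 9 were at least 2-fold higher (0.781%) and 13 at least 1.5-fold higher (1.13%), and 1 was at least 1.5-fold lower (0.0867%). The 9 carry 3 sets of symbols and 7 distinct rows of intensities, so that they are fewer measurements than probe sets. Genes that share a probe set could not be told apart.

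The chemokine probe sets named CCL4L1/CCL4L2/CCL4 led. CCL4 encodes MIP-1β, a chemokine that attracts lymphocytes and monocytes, and CCL4L1 and CCL4L2 are its near-identical copies. A pair with the same values had intensities of 381 with vehicle and 4585 with atovaquone, a log2 ratio of 3.59. A further CCL4L1/CCL4L2/CCL4 probe set had 331, just above the vehicle floor, and 3962 (3.58). The probe set with the symbol CCL4 alone gave 180.27 and 2474, with the vehicle value under the floor, so that only a bound is known. All CCL4 probe sets were under the floor on both K562 arrays. The neighbouring chemokine gene CCL3, which encodes MIP-1α, stood at 7209 with vehicle and 9789 with atovaquone, a log2 ratio of 0.44. Its shared probe sets CCL3L3/CCL3L1/CCL3, of which 3 have the same values, stood at 6525 and 9386, a log2 ratio of 0.52. Both chemokine genes were thus above vehicle, and the CCL4 ratios were the larger ones.

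HSPA1A and HSPA1B, which encode the same inducible HSP70 chaperone, share 5 probe sets. Vehicle intensities of HSPA1B/HSPA1A were between 832 and 929.55, and atovaquone intensities between 8595 and 8640.31. The 5 ratios were between 3.21 and 3.37 (9.28-fold to 10.3-fold), and 2 of the probe sets had the same values. In K562 the same probe sets were lower with atovaquone, at −1.03 to −1.10. They stood at 3751 to 4412 with vehicle there and at 1763 to 2109 with atovaquone. Each of these K562 values lay above the U266 vehicle values. HSPA7/HSPA6, a strictly inducible HSP70 gene with its pseudogene, went from 317 under the floor to 1469, at least 4.44-fold higher, against −0.54 in K562. All 6 of these HSP70 probe sets were on the high side in U266 and on the low side in K562. LOC102724428/SIK1, the salt-inducible kinase gene with its copy, had 559.64 with vehicle and 1650.34 with atovaquone, 2.95-fold higher, and a K562 ratio of 0.10. SIK1 phosphorylates and restrains the CREB coactivators.

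Several shared probe sets pair a small RNA with the gene that contains it. TAF1D, a subunit of the RNA polymerase I factor SL1, hosts a cluster of small nucleolar RNAs. SNORA8/TAF1D had intensities of 2499.54 and 4485 (log2 ratio 0.84), SNORA1/TAF1D 385 and 584 (0.60) and SNORD5/TAF1D 3865 and 5559 (0.52). Both probe sets of SNORA40/TAF1D gave ratios near 0.40, at 0.39 and 0.40, from vehicle intensities of 1641 and 396. In K562 they differed, at −0.17 and 0.68. SNORD6/TAF1D gave 0.20 in U266. The probe set of TAF1D alone also stood at 0.20, from 3776 to 4345, so 5 of the 6 shared probe sets lay above it by 0.19 or more. SNORA56/DKC1, within the dyskerin gene, had 444 and 688 (0.63), and DKC1 alone was at 0.04. MRPS6/SLC5A3 had 1335 and 2368 (0.83). There the ratio was close to that of SLC5A3 alone, the sodium-coupled transporter of myo-inositol, at 1602 and 2948 (0.88). The lower probe set was LOC644669/ANKRD30BL/ANKRD30BP2, of ankyrin repeat genes and pseudogenes, at 755 and 499 (−0.60).

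**Figure D2:**
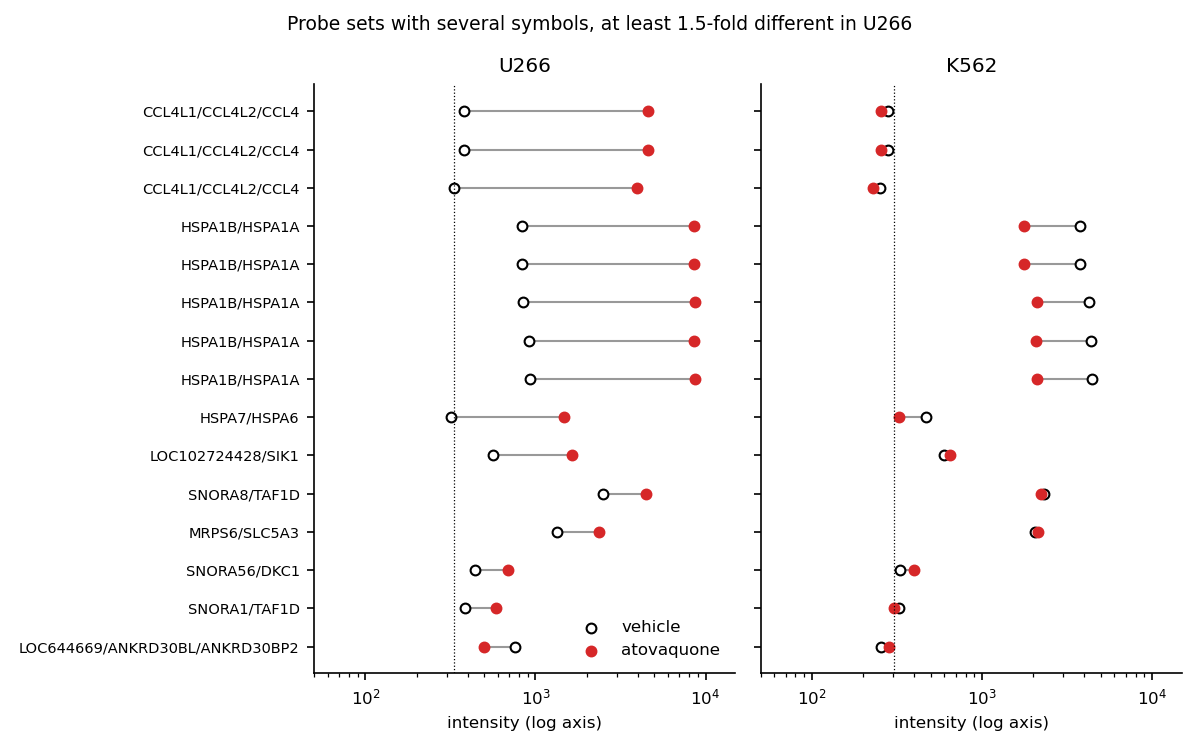
Intensity on a log axis of the 15 probe sets with several symbols that were at least 1.5-fold different, or had such a bound, in U266. Open circles are vehicle arrays, filled circles atovaquone arrays, the left panel is U266 at 2 h, the right panel K562 at 5 h, and the dotted line is the floor of the vehicle array. The 5 HSPA1B/HSPA1A rows run from 832 or more to 8595 or more in U266 and fall by 1.03 to 1.10 on the log2 scale in K562.

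Genes of small GTPases and G protein regulators were among those at least 2-fold higher outside the stress lists. RHOB, an endosomal small GTPase that acts on actin and vesicle traffic, had an intensity of 357 with vehicle and 1933 with atovaquone, 5.40-fold higher. The vehicle value of RHOB was close to the floor. RGS1, which speeds GTP hydrolysis by G protein alpha subunits and is abundant in B cells, went from 719 to 3373, 4.69-fold higher. Its relative RGS2, which acts mainly on the Gq class, was under the floor at 321 with vehicle and reached 1911, at least 5.77-fold higher. RND3, a small GTPase that acts on the actin cytoskeleton, had 428 and 1211, 2.83-fold higher. RAB30, a Golgi Rab GTPase, had 954 and 2439.53 (1.35), and GEM, a GTPase that inhibits calcium channels, was under the floor at 175 and reached 655 (at least 0.98). Of 61 measured Ras, Rap, Ral and Rab GTPases 1, RAB30, was at least 1.5-fold higher and 0 lower, with a median of −0.0065. Of 26 RGS proteins and G protein subunits 1, RGS1, was higher and 0 lower, with a median of 0.03, although 20 of them lay above 0. The median over all listed probe sets measured was −0.01. In K562, RHOB stood at −0.14 and RAB30 at −0.07, RGS2 had a bound of at least 0.30, and RGS1, RND3 and GEM were under the floor on both arrays. TAGAP, a GTPase-activating protein of activated T cells, had 495 and 1006 (1.02), and RHOH, a small GTPase of blood cells, had 1581 and 2247 (0.50).

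**Figure D3:**
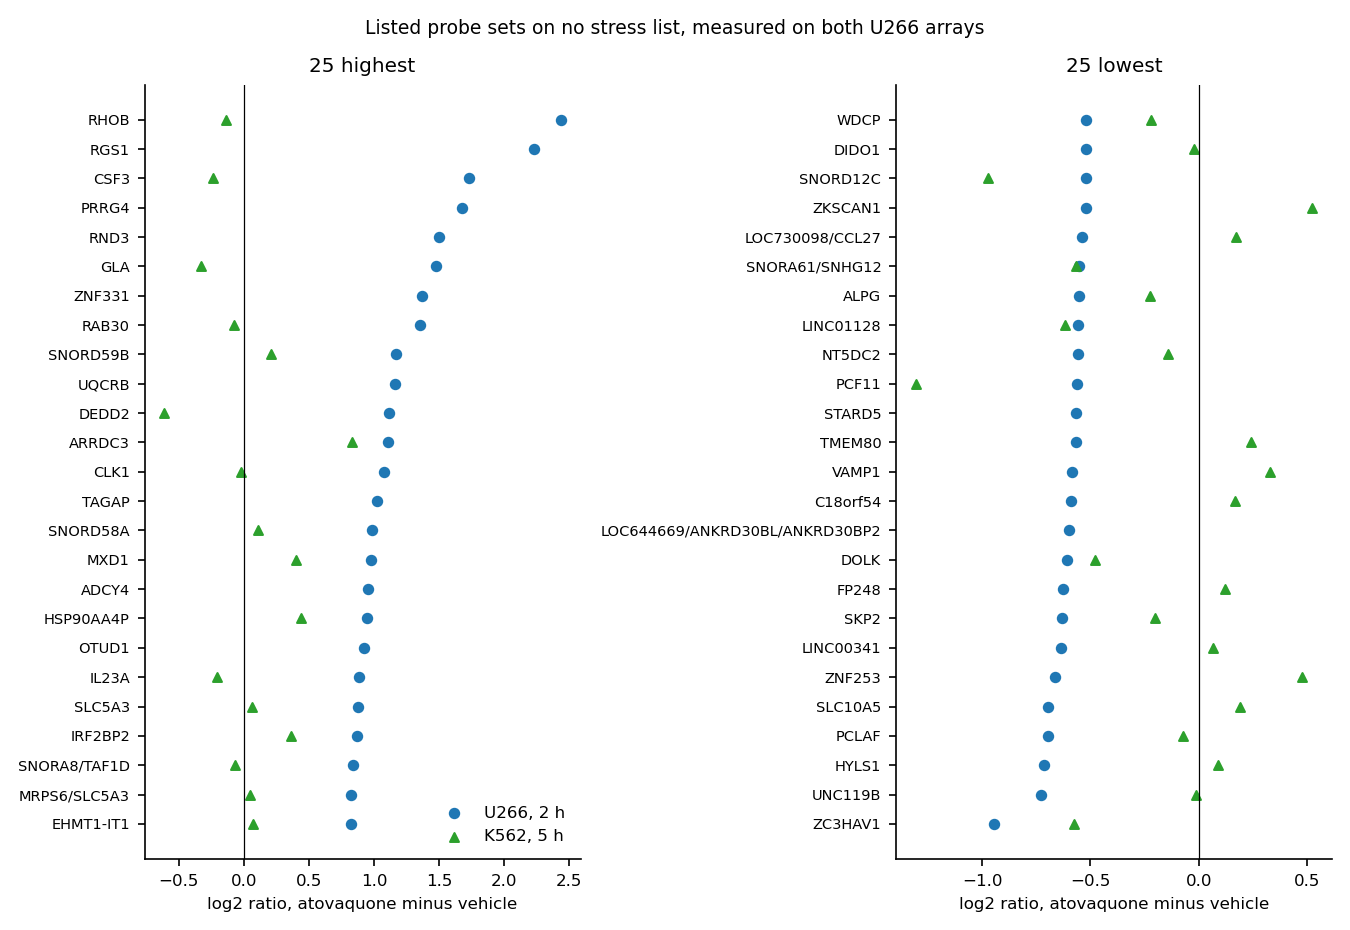
Log2 ratio of atovaquone to vehicle for the 25 highest and 25 lowest listed probe sets on no stress list that were measured on both U266 arrays. Circles are U266 at 2 h and triangles K562 at 5 h, and a missing triangle means that the probe set was not measured on both K562 arrays. The highest run from RHOB at 2.43 down to EHMT1-IT1 at 0.82, and the lowest from WDCP at −0.52 down to ZC3HAV1 at −0.94.

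Upstream sequence of 4 of the highest genes is shown because each holds the letters TGACG, the core of the cAMP response element, on either strand, and they were chosen after that search. Other high genes hold none in their windows, among them SAT1, RND3 and RAB30. Each line gives the 250 bases before the RefSeq start on GRCh38.p14, in the direction of the gene, with TGACG or its reverse complement CGTCA in capitals. They lie at chr2:20446824-20447073 (plus strand) for RHOB, chr1:192575523-192575772 (plus strand) for RGS1, chr1:192808789-192809038 (plus strand) for RGS2 and chrX:101407926-101408175 (minus strand) for GLA.
RHOB: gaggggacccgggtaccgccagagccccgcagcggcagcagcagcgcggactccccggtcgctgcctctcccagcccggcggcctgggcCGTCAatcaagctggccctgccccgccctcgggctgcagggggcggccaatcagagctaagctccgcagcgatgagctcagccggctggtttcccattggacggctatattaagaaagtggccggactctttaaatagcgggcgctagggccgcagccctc
RGS1: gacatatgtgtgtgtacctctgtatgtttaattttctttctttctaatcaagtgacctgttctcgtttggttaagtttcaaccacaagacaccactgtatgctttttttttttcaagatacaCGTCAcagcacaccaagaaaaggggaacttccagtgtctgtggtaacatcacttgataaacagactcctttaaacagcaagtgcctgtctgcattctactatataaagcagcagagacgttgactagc
RGS2: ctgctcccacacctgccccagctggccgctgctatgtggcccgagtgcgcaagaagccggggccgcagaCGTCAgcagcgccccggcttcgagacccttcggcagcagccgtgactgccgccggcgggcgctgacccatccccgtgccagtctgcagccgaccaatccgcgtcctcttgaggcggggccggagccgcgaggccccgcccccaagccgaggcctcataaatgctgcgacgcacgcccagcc
GLA: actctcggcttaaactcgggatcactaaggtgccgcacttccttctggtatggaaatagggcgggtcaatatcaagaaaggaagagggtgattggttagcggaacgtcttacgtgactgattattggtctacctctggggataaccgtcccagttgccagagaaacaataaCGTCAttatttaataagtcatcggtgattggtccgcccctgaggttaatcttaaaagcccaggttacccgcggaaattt
The match begins 161 bases before the start in RHOB, 128 in RGS1, 181 in RGS2 and 79 in GLA. Over the genes on no stress list with a ratio or bound of at least 1.5-fold higher, small RNA genes left out, 38 of 54 had a promoter in the table. TGACG was present in 17 of the 38 (44.7%), in 36.5% of the 8619 measured genes with a promoter and in 24.9% of all 27305 genes of the table. Genes at least 1.5-fold lower, bounds included, held it too, in 5 of the 9 of 17 that had a promoter (55.6%). In all 8 motifs were searched on both strands. The CCAAT box (CCAAT) was in 55.3% against 41.7% of measured genes, the full cAMP response element (TGACGTCA, which contains TGACG) in 7.89% against 3.55%, and the AP-1 site (TGANTCA) in 5.26% against 5.35%. Of the others, GAANNTTC of the heat shock element was in 7.89% against 5.56%, the STAT site TTCNNNGAA in 13.2% against 7.30%, and the E-box CACGTG in 13.2% against 11.5%. The forkhead motif GTAAACA was in 4 of the 38, ARRDC3, JMY, OTUD1 and TMEM140 (10.5%), against 2.74%. In the 9 promoters of lower genes the CCAAT box was in 4 (44.4%), the heat shock, STAT and E-box motifs in 1 each (11.1%), and the full cAMP response element, the AP-1 site and the forkhead motif in 0. These matches describe the letters in the window, no test was run on the shares, and genes with several starts counted once if any start matched.

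Genes of secretion and immune signalling were also among the highest. CSF3, the granulocyte colony-stimulating factor, had 398 with vehicle and 1322 with atovaquone, 3.31-fold higher, and −0.23 in K562. IL23A, the p19 subunit of interleukin-23, had 882 and 1629.99 (log2 ratio 0.88). CD69, an early activation antigen of lymphocytes, was under the floor at 128 and reached 633 (at least 0.94). PRRG4, a vitamin K-dependent membrane protein, had 345 and 1102 (1.67), with the vehicle value close to the floor. Cytokines, chemokines and their receptors did not move together, since 2 of 47 measured members were at least 1.5-fold higher, 0 lower, and the median was −0.02. Those 47 leave out the shared probe sets of CCL4 and CCL3, because the gene copies were not on the list. CCL4L1/CCL4L2/CCL4 reached 3.59, and CCL4 alone, which was on the list, had only a bound, at 2.90 or more. IL11, a cytokine of the IL-6 family, lay on the low side at 1077 and 776 (−0.48). B cell receptor and plasma cell signalling genes had 0 of 26 at least 1.5-fold different and a median of 0.05. BLNK, the B cell linker adaptor, had 458 and 613 (0.42), and VAV3, a guanine nucleotide exchange factor, 547 and 737 (0.43). HLA genes had 28 of 34 measured units above 0, with a median of 0.10 and 0 at least 1.5-fold different. The highest of them, the class II probe sets HLA-DQB2/HLA-DQB1, had ratios of 0.24 to 0.42, with 2 of the 4 sharing the same values.

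Among metabolic and lysosomal genes, GLA had 1144 with vehicle and 3181 with atovaquone, 2.78-fold higher, and −0.33 in K562. GLA encodes alpha-galactosidase A, which removes galactose from glycosphingolipids and is deficient in Fabry disease. It was the single member of 44 measured lysosomal hydrolases and membrane genes to reach 1.5-fold, and their median was 0.02. SAT1, the acetyltransferase that starts polyamine breakdown, was just under the floor at 326.5 with vehicle and reached 2868, at least 8.66-fold higher. In K562 it was measured on both arrays, at 711 and 1812 (1.34). None of the 18 polyamine genes measured on both U266 arrays reached 1.5-fold, and 6 others had no ratio. The lowest of the 18 measured was AMD1, the decarboxylase that supplies the aminopropyl donor of polyamine synthesis, at 2403 and 1827 (−0.40). UQCRB, a subunit of the complex that atovaquone inhibits, had 419 and 937 (1.16), whereas its pseudogene UQCRBP1 had 861 and 1033 (0.26). Of 77 measured genes of the respiratory chain, coenzyme Q and mitochondrial assembly it alone reached 1.5-fold, and the median was −0.01. In K562 UQCRB went from 394 to 274, under the floor. Signal from a gene and a similar pseudogene cannot be separated by probe sets that match both, and the probe sequences were not used here. SLC25A25, a calcium-regulated carrier of ATP-magnesium across the inner mitochondrial membrane, had 517 and 815 (0.66). PPARGC1A, the coactivator of mitochondrial biogenesis, was under the floor at 322 and reached 525 (at least 0.66). Across 167 solute carriers 2 were at least 1.5-fold higher and 1 lower, with a median of −0.04.

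Regulators of transcription, splicing and protein turnover included single genes on the high side. ZNF331, a zinc finger repressor, had 644 and 1668 (log2 ratio 1.37), and DEDD2, a nuclear death effector domain protein, had 909 and 1971 (1.11). ARRDC3, an arrestin that directs receptors to ubiquitin ligases, had 1972 and 4257 (1.11). It was the gene of the 14 with the highest K562 ratio, at 0.83. Of the 8 measured there, 0 were at least 2-fold higher, against 0.234% among all listed probe sets in K562. Above 0 were 2 of the 8, and the share above 0 over all listed probe sets there was not counted. CLK1, a kinase that phosphorylates SR splicing factors, had 1247 and 2628 (1.07), and its relative CLK4 had 589 and 869 (0.56). TRA2A, a splicing activator, differed by probe set, with 1153 and 1901 in the first (0.72, and 0.69 in K562) and 2876 and 3125 in the other (0.12, and −0.09 in K562). Of 34 measured SR proteins and splicing kinases CLK1 alone reached 1.5-fold by the brightest probe set of each gene, and the median was 0.03. MXD1, which competes with MYC for MAX, had 1081 and 2133.5 (0.98). IRF2BP2, a corepressor, had 1292 and 2368 (0.87), and MED30, a Mediator subunit, had 516 and 878 (0.77). OTUD1, a deubiquitinase, had 1502 and 2846 (0.92), and TRIB1, a pseudokinase adaptor of the COP1 ubiquitin ligase, had 2569.89 and 4368 (0.76). EIF2AK3, the PERK kinase of the unfolded protein response, had 1987 and 3329 (0.74), with 0.05 in K562. CREBRF, a regulator of CREB3 factors, had 598 and 948 (0.66) and in K562 a bound of at least 0.92. HSP90AA4P, a pseudogene similar to the inducible HSP90 gene, had 1938 and 3732 (0.94) and was not on a stress list.

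Across all 62 probe sets on no stress list that were at least 1.5-fold higher, 45 were measured in K562. Of these 45, 3 were at least 1.5-fold higher there and 27 lay above 0. Among all listed probe sets measured in K562, 1.32% were at least 1.5-fold higher. The shares of them above and below 0 were not counted. Of the 13 that were at least 1.5-fold lower in U266, 12 were measured in K562 and 5 lay below 0. Bounds added 22 listed probe sets at least 1.5-fold higher and 7 lower, of which 11 and 1 were at least 2-fold. Bounds on the high side not named so far included TCIM, a regulator of Wnt signalling, at 1.13 or more, and AVPI1, a gene induced by vasopressin, at 0.79 or more. FBXO32, the atrophy-linked F-box protein, stood at 0.63 or more.

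Among the lower genes measured on both arrays no listed one reached 2-fold, and MIR142 was the 1 listed gene with such a bound. ZC3HAV1, the zinc finger antiviral protein that binds CpG-rich RNA, had 2274 with vehicle and 1184 with atovaquone, 1.92-fold lower, and −0.58 in K562. Its cofactor TRIM25, a RING ubiquitin ligase, had 2063 and 1474 (−0.49), with 0.00 in K562. The remaining 34 genes of the CCCH and PARP list were not all on the low side, since 19 of its 36 measured members lay above 0 and the median was 0.0044. At a size of 1.5-fold 2 members were higher, ZFP36 at 1.26 and ZFP36L1 at 0.94, both also on a stress list, and 1 was lower, ZC3HAV1. SKP2, the F-box protein that directs p27 to degradation, had 2530.49 and 1637 (−0.63), and CCNE1, cyclin E, had 907 and 667 (−0.45). CDKN1B, which encodes p27, stood at 0.19. PCLAF, a PCNA-associated factor, had 755 and 467 (−0.69) in a probe set whose companion for the same gene had 2115 and 2151 (0.02), so the gene's value differed by probe set. S phase and mitosis genes had 0 of 80 members at least 1.5-fold different and a median of −0.02.

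DOLK, the kinase that makes dolichyl phosphate, the lipid on which N-glycans are built, had 947 and 622 (−0.61) and −0.48 in K562. GMPPB, which supplies GDP-mannose, had 473 and 344 (−0.46). Of 50 measured N-glycosylation and dolichol genes DOLK was the only member at least 1.5-fold different, and the median was −0.03. PCF11, a subunit of the machinery that cleaves pre-mRNA at the 3′ end, had 2092 and 1418 (−0.56) and −1.31 in K562, from 1621 to 659.96 in that line. Ciliary genes HYLS1, from 567 to 346 (−0.72), and UNC119B, from 548 to 331 (−0.73), were both close to the floor with atovaquone. VAMP1, a vesicle SNARE, had 512 and 341 (−0.59), and SLC10A5, an orphan carrier of the bile acid transporter family, 549 and 340.09 (−0.69). Their atovaquone values, like that of GMPPB, were also close to the floor. ZNF253, a KRAB zinc finger gene, had 1475 and 933 (−0.66), and in K562 it was above vehicle at 0.48. ZKSCAN1, of a related family, likewise stood at −0.52 in U266 and 0.52 in K562. Of bounds on the low side, C1orf220 stood at −0.91 or less and the pseudogene SEPTIN7P13 at −0.72 and −0.75 or less in 2 probe sets, against 0.57 and 0.56 in K562.

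Small nucleolar RNAs, which guide methylation (box C/D) or pseudouridylation (box H/ACA) of ribosomal RNA, and the Cajal body RNAs, which do so for spliceosomal RNA, stood above the median of the array. Of 65 measured box C/D units 51 had a ratio above 0, 7 reached 1.5-fold on the high side and 0 on the low side, with a median of 0.18. Of 50 measured box H/ACA and Cajal body units 44 had a ratio above 0, again 7 and 0 reached 1.5-fold, and the median was 0.28, or 0.18 under a 60th percentile floor. Over all listed probe sets 46.4% lay above 0. In K562 the box C/D median was −0.22 and the box H/ACA and Cajal body median 0.06. Many of these probe sets were dim, and 61 box C/D and 24 box H/ACA and Cajal body units were under the floor on both U266 arrays. Copies of a family can share probes.

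SNORD59B, within the ATP synthase gene ATP5F1B, had 333 with vehicle, just above the floor, and 751 with atovaquone (log2 ratio 1.17). Its neighbour SNORD59A was under the floor at 276 and reached 618 (at least 0.90), and the host itself stood at 0.05. SNORD58A, within RPL17, had 364 and 722 (0.99), with the host at 0.15. SNORD54, within RPS20, had 512 and 894 (0.80), with the host at 0.10. In each of these the small RNA lay above the gene that contains it. SNORA29, within the chaperonin gene TCP1, was under the floor at 228 and reached 1508, at least 4.55-fold higher. SNORA20 in the same gene had 665 and 1027 (0.63), while TCP1 stood at 0.13, from 6099 to 6667. SNORD14E and SNORD14C, in the heat shock gene HSPA8 and so on a stress list, had ratios of 2.72 and 1.67 against 0.13 for HSPA8. On the low side, SNORD12C, within ZFAS1, had 598 and 417 (−0.52) and −0.97 in K562. SNORD50B had 461 and 325, the latter just above the floor (−0.51), and −1.33 in K562. SNORD75 stood at −0.42, SNORD30 at −0.36 and SNORD81 at −0.26, with −0.92, −0.45 and −0.75 in K562. By contrast, 51 of the 65 measured box C/D units lay above 0 in U266. SNORA61/SNHG12 had 4236 and 2891 (−0.55) and −0.56 in K562.

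The annotation placed 58 measured small RNA genes inside 46 measured genes. The median was 0.29 for the small RNAs and 0.06 for the hosts, whose ratios lay between −0.19 and 0.21 in these pairs. In 45 of the 58 pairs the small RNA had the higher ratio, and 12 small RNAs were at least 1.5-fold higher. Small RNAs not placed in a measured host were left out. The pairs thus hold 21 of the 65 measured box C/D units. Of the 50 measured box H/ACA and Cajal body units they hold 27 and 10. Box C/D genes left out included SNORD50B at −0.51 and SNORD79 at 0.40. The medians of small RNA and host were 0.42 and 0.07 in 21 box C/D pairs, 0.24 and 0.06 in 27 box H/ACA pairs, and 0.31 and 0.03 in 10 Cajal body pairs. Over all 65 measured box C/D units the median was 0.18, so those placed in a measured host stood above that list as a whole. The small RNAs were dimmer, with a median vehicle intensity of 658 against 3325 for the hosts. The part of that difference in the ratios was not tested. A further 9 small RNA genes in measured hosts had a bound on the high side, and 8 of those bounds lay above the host. The exception was SNORA70E, at least 0.32, within RAB30 at 1.35, where the bound does not give the order. Pairs in 1 host share that host's value, and strand was not used to place them.

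**Figure D4:**
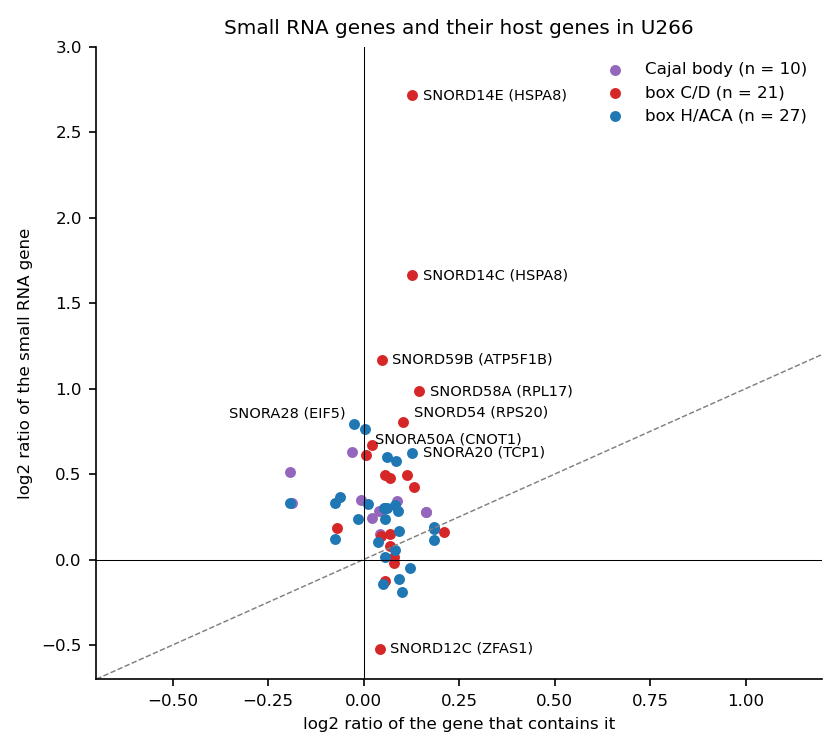
Log2 ratio in U266 of each measured small RNA gene (y axis) against that of the measured gene that contains it (x axis), for 21 box C/D, 27 box H/ACA and 10 Cajal body genes. The dashed line marks equal ratios. Points stand above it in 45 of 58 pairs, up to SNORD14E at 2.72, while the hosts plotted lie between −0.19 and 0.21.

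Of the 53 function lists 46 had a median between −0.1 and 0.1. Small RNA host genes and nuclear long RNAs were outside that range, with 9 of 11 measured members above 0, a median of 0.16 and 0 at least 1.5-fold different. The highest was MIR17HG, the host of a microRNA cluster, at 0.52. ZNF zinc finger genes, mostly KRAB repressors, had 108 of 328 measured members above 0, a median of −0.07, 2 at least 1.5-fold higher and 1 lower, against a K562 median of 0.07. The 2 higher members were ZNF331 and ZNF473 at 0.60. Long intergenic and antisense RNA genes had 27 of 96 above 0 and a median of −0.10, with 2 higher, EHMT1-IT1 at 0.82 and LINC02981 at 0.69, and LINC00341 lower at −0.64. Cytosolic ribosomal and ribosome biogenesis genes had 68 of 81 above 0, a median of 0.06 and 0 at least 1.5-fold different. Wnt pathway genes had 4 of 25 above 0 and a median of −0.05, also with 0 at least 1.5-fold different. Circadian clock genes had 15 of 19 above 0 and a median of 0.09. Their 2 members at least 1.5-fold higher, NFIL3 at 0.80 and BHLHE40 at 0.75, are on a stress list too, and NR1D1, the REV-ERBα repressor, stood at 0.45. Immunoglobulin genes had 6 measured units and a median of −0.23, with 1 above 0, and olfactory receptor genes 15 measured units and a median of −0.19. Both of those small lists had 0 members at least 1.5-fold different, and their medians depended on the floor. That of the immunoglobulin genes moved to −0.13 when the 20th percentile served as floor and to −0.08 at the 60th, and that of the olfactory receptor genes to −0.04 and −0.35. Clustered histone genes had a median of −0.02 over 62 units in U266 and −0.25 in K562. Each list's count of members past 1.5-fold stands beside 0.845% higher and 0.113% lower over all listed probe sets, and the lists overlap.

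**Figure D5:**
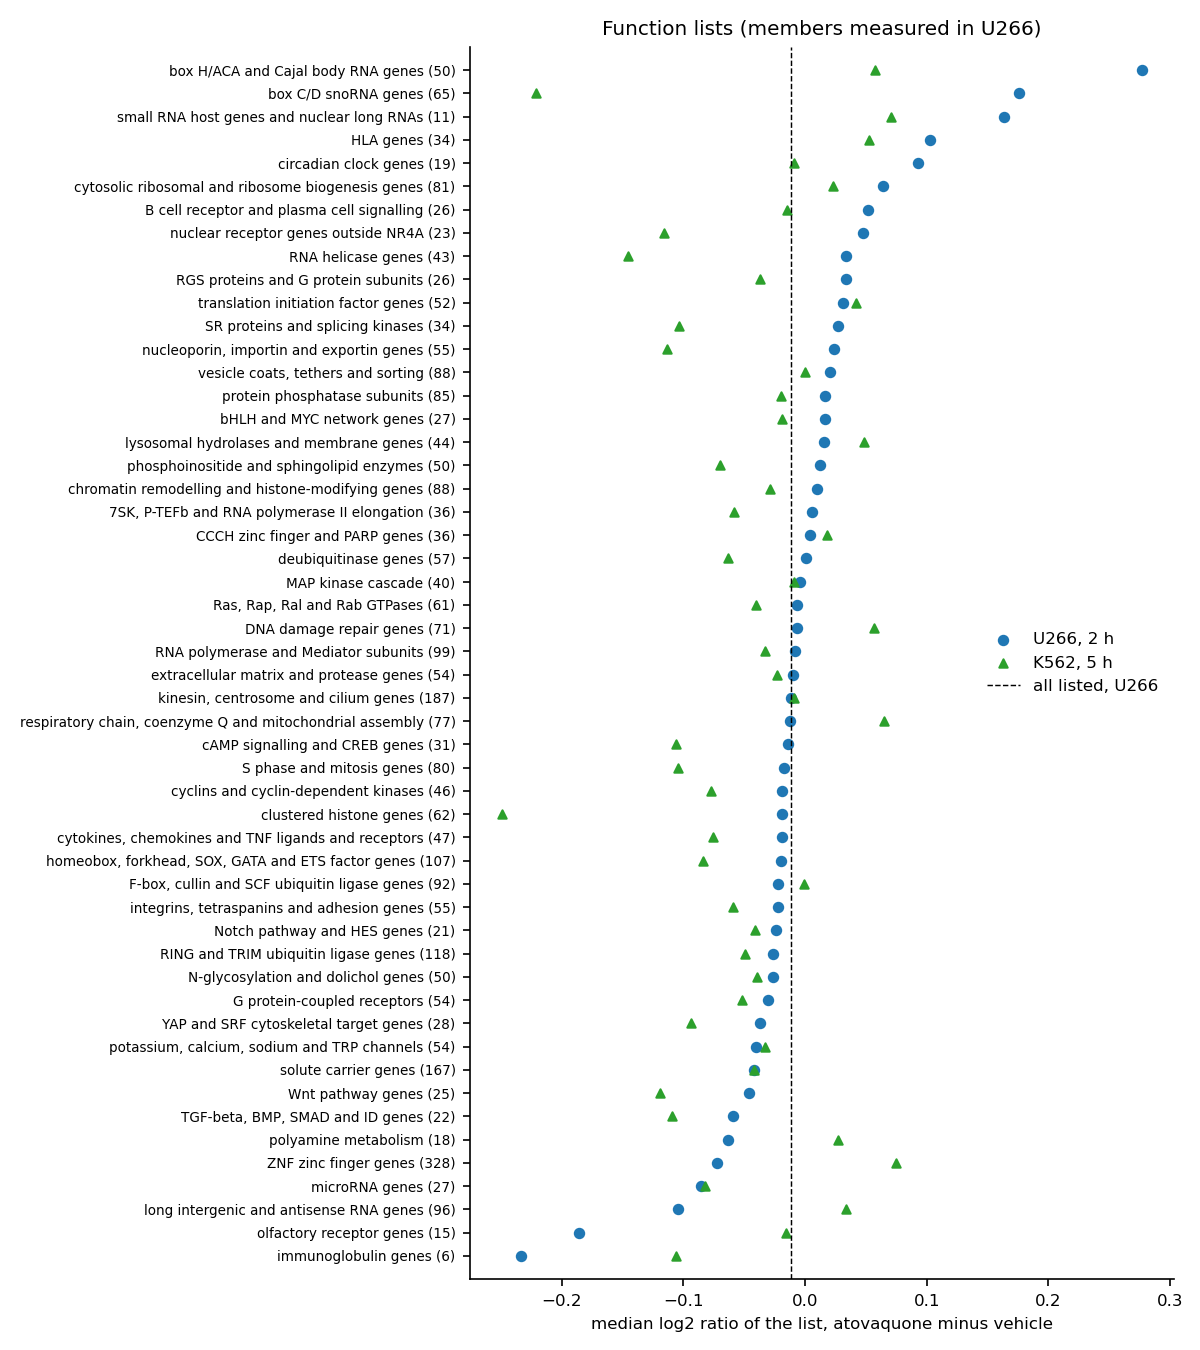
Median log2 ratio of atovaquone to vehicle for the function lists reported here with at least 5 measured members, with the number measured in U266 in brackets. Circles are U266 at 2 h, triangles K562 at 5 h, and the dashed line is the median of all listed probe sets measured in U266. The box H/ACA and Cajal body list stands highest in U266 at 0.28 and the immunoglobulin list lowest at −0.23, but under a 60th percentile floor the olfactory receptor list is lowest at −0.35.

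The label of a plasma cell tumour was checked against markers. Of 15 plasma cell markers 14 were measured on both U266 arrays, and CD27 was under the floor. JCHAIN, the joining chain of secreted immunoglobulin, had 10691 with vehicle and 11063 with atovaquone, TNFRSF17 4160 and 4322, and SDC1, the syndecan CD138, 3776 and 3857. PRDM1, the plasma cell regulator Blimp-1, had 3012 and 3643, a log2 ratio of 0.27, the highest of the list. DERL3 and MZB1, which act in the endoplasmic reticulum, both stood at −0.25. CD38 was dim, at 396 and 385, close to the floor, and TNFRSF13B had 1186 and 1223. In K562, where 9 of the 15 were measured, CD38 had 668 and 668, and TNFRSF13B 1188 and 1137. JCHAIN and TNFRSF17 were under the floor there. In U266 the median was 0.05, and 0 markers were at least 1.5-fold different. Measured markers of other cells were 3 of 9 for T cells, 1 of 10 for myeloid, 6 of 11 for erythroid, 2 of 10 for fibroblast and endothelial and 4 of 7 for epithelial cells. None of those 16 was at least 1.5-fold different.

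Probe sets without a symbol were counted apart. Of 3981 measured, 21 were at least 2-fold higher (0.528%) and 25 at least 2-fold lower (0.628%), against 0 lower among the listed. Which of these counts was the larger depended on the floor. They were 77 higher and 31 lower under a 20th percentile floor, 40 and 26 with the percentile taken over all probe sets, 553 and 241 without a floor, and 4 and 12 at the 60th percentile. At 1.5-fold 163 were higher (4.09%) and 54 lower (1.36%). The 25 lower ones hold 21 distinct rows of intensities and were bright, with a median vehicle intensity of 2416. Probe set 8113356 had 2358 and 512 (log2 ratio −2.20) and −1.73 in K562, and 7896748 had 4329 and 1000.15 (−2.12) and −1.48 in K562. Of the 25, 23 were measured in K562, all 23 were lower there and 16 at least 2-fold, with a K562 median of −1.19. Among listed probe sets measured in K562, 0.178% were at least 2-fold lower, and the share over unlisted ones there was not counted. The 21 higher ones were dimmer, with a median vehicle intensity of 409.52. They included 7895684, at 358 and 1049.91 (1.55), and 8092968, at 369.5 and 1053 (1.51). Of the 12 that were measured in K562, 6 lay above 0, and the share above 0 over all unlisted probe sets there was not counted. What these probe sets detect is not given in the annotation used here.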

How the data were processed

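Affymetrix Human Gene ST arrays were hybridised with biotin-labelled cRNA from total RNA, per the labels' protocols. The deposited values are the authors' processed intensity per probe set on a linear scale, with a lowest value of exactly 1 and array medians of 339 and 340 in U266. The authors' software, background correction and normalisation were not given in the sources used here.

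Values were put on the log2 scale with Python 3.11.15, numpy 2.4.6 and pandas 2.3.3. The floor was each U266 array's 40th percentile over listed probe sets, 331 with vehicle and 324 with atovaquone. Ratios were centred by 0.0019, which removes any change that most probe sets share. For a probe set under the floor on 1 array a bound against the floor is given. Genes were named by the platform annotation, of which 19429 of 19461 probe sets with 1 symbol matched RefSeq by Entrez identifier, and 1753 had several symbols. Probe sets with several symbols are named by all of them. A gene with several probe sets entered a list by its brightest.

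Named were the 25 highest and 25 lowest ratios on no stress list and the 8 highest and 8 lowest bounds. Also named were shared probe sets at least 1.5-fold different, up to 4 members per list at least 1.3-fold different, and the plasma cell markers. CDKN1B, CCL3, CCL4, DKC1, TAF1D and its other shared probe sets, SNORD54, SNORA20, UQCRBP1, TRA2A, TRIB1, CREBRF, PPARGC1A, FBXO32, MIR21, JMY, TMEM140 and the host genes of small RNAs were named outside that rule, after their values were seen. SNORD30, SNORD50B, SNORD75, SNORD79 and SNORD81 were likewise named outside that rule, after their values were seen. The members, lists and rules were chosen with earlier results of these data known. The results of 1 function list are not reported here. The calculation was tested on simulated data. Alternatives covered the floor, centring, quantile normalisation and a pseudocount. The number of arrays, 1 per group, limits the precision of every value.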

Additional observations from a re-analysis of the deposited data

Results flagged for a closer look

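Named probe sets that were at least 1.5-fold different in opposite directions in U266 at 2 h and K562 at 5 h were marked for a closer look, with shared probe sets counted once. The difference between lines was not tested, each side is 1 pair of arrays, and dose and time differ as well as the line. HSPA1B/HSPA1A, the inducible HSP70 genes, had a log2 ratio of 3.37 in U266 and −1.10 in K562. SNORD14E and SNORD14C, small nucleolar RNA genes inside the HSP70 family gene HSPA8, had 2.72 and 1.67 in U266 and −1.52 and −1.11 in K562. DEDD2, a death effector domain gene on no stress list, had 1.11 in U266 and −0.61 in K562. Each of them had a higher vehicle intensity in K562 than in U266. The K562 and U266 vehicle values were 3751 and 832 for HSPA1B/HSPA1A and 917 and 366 for SNORD14E. They were 3980 and 2345 for SNORD14C and 1386 and 909 for DEDD2. The part of the vehicle level in the ratios was not tested.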

How the results depend on the processing

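The counts depended on the floor. The 43 listed probe sets at least 2-fold higher became 87 without a floor and 20 when it was raised to the 60th percentile, and the 0 at least 2-fold lower became 25 without a floor, 8 when it was set to the 20th percentile and 4 with the 40th percentile taken over all probe sets. The 105 at least 1.5-fold higher became 241 without a floor and 48 at the 60th percentile. The 14 at least 1.5-fold lower became 139 without a floor, 44 at the 20th and 4 at the 60th percentile, 25 with the percentile over all probe sets, and 5 with 100 intensity units added. The floor sets which probe sets are counted, by construction. The other settings tried (no centring, centring on all or on listed probe sets, quantile normalisation, and identical probe sets counted once, the last and the listed centring chosen after seeing the data) left each of the 4 counts within 1.5 times. Of 69 named probe sets at least 1.5-fold different, 30 were still measured under the 60th percentile setting and all 30 passed 1.5-fold, 29 had only a bound (12 of them at least 1.5-fold) and 10 had no ratio. With 100 units added 54 passed, under each of the other settings 67 to 69 did, and 0 changed sign under any setting. Of 53 list medians 2 moved by over 0.1 under some floor or probe set setting, those of the immunoglobulin and olfactory receptor genes. No paired analysis was possible because each group had 1 array, and for the same reason no array could be left out. Signal over background limits the dim genes, and 61 of 135 box C/D units and 144 of 499 ZNF genes were under the floor on both arrays.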
